A study of Homo sapiens with 6 samples.

Results

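The 10 genes described here encode secreted inflammatory signals: the CXC chemokines CXCL1, CXCL2, CXCL3 and CXCL8, the CC chemokine CCL20, the colony-stimulating factors CSF2 and CSF3, and the interleukins IL6, IL1A and IL1B. They were taken by gene symbol from read counts of 28265 genes in 6 polyA RNA sequencing libraries, and all 10 were found. The libraries came from the human cell line MDA-MB-231, established from a triple-negative breast cancer, and from its glutamine-independent derivative MDA-MB-231GlnIND (here GlnIND), with 3 libraries each. Parental cells grew in glutamine-replete RPMI 1640 with 10% fetal bovine serum. GlnIND cells had spent more than 6 weeks in RPMI 1640 without glutamine, with 10% dialyzed fetal bovine serum. Selection of the derivative, glutamine supply and serum dialysis therefore differ together and cannot be told apart. The labels do not say whether GlnIND is a single clone or whether each library had a culture of its own. The p-values thus rest only on how far these libraries differ within a group, and that spread may be technical.

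CXCL1, CXCL2, CXCL3 and CXCL8 carry an ELR motif before their first cysteines and attract neutrophils through the receptors CXCR1 and CXCR2. CSF3 (G-CSF) drives neutrophil production in the bone marrow, and CSF2 (GM-CSF) acts on granulocytes and macrophages. IL1A and IL1B signal through the IL-1 receptor to NF-kB, the transcription factor family that induces most genes of this group, and IL6 signals through IL6R and IL6ST to STAT3. Many of these mRNAs are short-lived, because AU-rich elements recruit decay factors. Aggressive breast cancer lines such as MDA-MB-231 are known to secrete CXCL8 and GM-CSF without added stimuli.

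Total counts ranged from 18256219 to 24594248 per library. CPM values (counts scaled to the library total with TMM factors) are given per library, and a floor of 6 counts, about 3 read pairs, corresponded to 0.230 to 0.343 CPM. The 6 line markers VIM, CD44, AXL, EGFR, KRT8 and KRT18 were abundant in all libraries. Of these, VIM, AXL and EGFR were called higher and CD44, KRT8 and KRT18 lower in GlnIND cells. Mean CPM went from 266 to 123 for KRT8 and from 284 to 104 for KRT18 (edgeR adjusted p = 2.11e-06 and 2.04e-06). ESR1, PGR and CDH1 had 6, 2 and 12 counts over the parental and 14, 8 and 13 over the GlnIND group. EPCAM, listed as low or absent in this line, was at 14.3 CPM in parental and fell in GlnIND cells (log2 fold change -2.68, edgeR adjusted p = 3.26e-06). Of 10 leukocyte markers 5 had 0 counts in every library, and PTPRC (CD45) had 5 parental and 9 GlnIND counts. The summed leukocyte markers were at 3.32 to 4.57 CPM in parental and 8.06 to 8.56 CPM in GlnIND libraries, mostly from CSF1R. The 7 fibroblast markers summed to 5.03 to 7.49 CPM in parental and 17.4 to 19.9 CPM in GlnIND libraries. All 3 of them that were tested rose: COL1A1 from 287 to 887 counts, PDGFRB from 61 to 224 and LUM from 0 to 172 (edgeR adjusted p = 0.00014, 0.000407 and 6.51e-05). With 0 parental counts, LUM passed the filter on low counts only through the GlnIND libraries and could not have been called lower. Of the untested ones, PDGFRA had 2 and 20 counts, COL3A1 0 and 24, COL1A2 10 and 12, and DCN 3 and 0. The 6 endothelial markers summed to 9.62 to 12.3 and 12.1 to 12.5 CPM. Of the 2 that were tested, PECAM1 rose from 137 to 314 counts (log2 fold change 0.85, edgeR adjusted p = 0.00254) and KDR was not called. The part of these cell type markers in the results was not tested.

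Of the 10 genes, 7 fell in GlnIND cells (edgeR quasi-likelihood test, Benjamini-Hochberg adjusted p under 0.05 over all 13949 tested genes), 0 rose, IL6 and IL1B were not called, and CCL20 was too low to be tested. Among all tested genes 27.9% were called lower and 28.4% higher, 56.3% in all. For 8 of the 10 genes, the untested CCL20 among them, every GlnIND library was below every parental library. Among tested genes the ranges were apart for 65.0%, with GlnIND below for 31.3%. A called fall of at least 2-fold was seen for 7 tested members and for 5.26% of all tested genes. At least 4-fold falls were called for 6 of the 9 tested members and for 1.47% of all tested genes. The 10 genes together made up 208 ± 13.4 CPM in the parental group against 30.1 ± 2.05 CPM in the GlnIND group (SD, 3 libraries each). The median log2 fold change was -2.38 over the 9 tested members and 0.03 over all tested genes. CSF2 and CSF3 reached the filter on low counts in all 3 parental libraries but in only 2 and 1 GlnIND libraries, so these counts and medians describe the genes and are no test of the group. The split over all genes moved with the scaling, from 3965 higher and 3888 lower to 5356 and 2810 with library totals alone and 4749 and 3204 with upper-quartile factors. The median of all genes moved to 0.18 and 0.12, and the members' median relative to it was -2.42 with TMM factors and -2.41 with library totals.

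**Figure D1:**
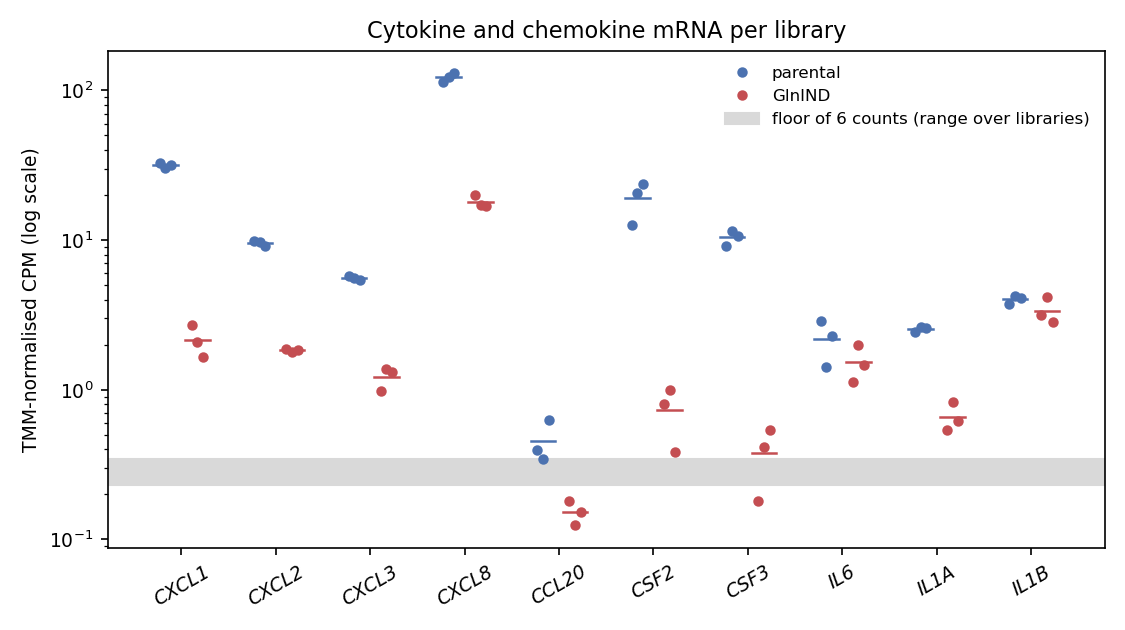
TMM-normalised CPM (log axis) of the 10 genes in each parental (blue) and GlnIND (red) library, with bars at the group means and a grey band for the floor of 6 counts. The groups are apart for 8 genes and overlap for IL6 and IL1B, and all GlnIND values of CCL20 lie under the band.

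All 4 neutrophil chemokine genes fell. CXCL8 (interleukin-8) stood at 114, 123 and 130 CPM in parental and at 19.95, 17.2 and 16.9 CPM in GlnIND libraries. The groups were far apart, and the fitted fall was 6.79-fold (log2 fold change -2.76, SE 0.093, edgeR adjusted p = 4.74e-08). CXCL1 stood at 32.5, 30.5 and 31.7 CPM in parental and at 2.69, 2.08 and 1.65 CPM in GlnIND libraries. Its fall was 14.8-fold (log2 fold change -3.89, SE 0.16, edgeR adjusted p = 1.33e-07), and the lowest parental library was above 10 times the highest GlnIND library. CXCL2 stood at 9.92, 9.78 and 9.15 CPM in parental and at 1.88, 1.79 and 1.84 CPM in GlnIND libraries. Each group was tight, and the fall was 5.22-fold (log2 fold change -2.38, SE 0.15, edgeR adjusted p = 1.73e-06). CXCL3 went from 5.75, 5.61 and 5.41 CPM to 0.987, 1.37 and 1.30 CPM, a 4.54-fold fall (log2 fold change -2.18, SE 0.2, edgeR adjusted p = 1.53e-05). The 95% interval of the CXCL1 change (-4.25 to -3.54) lay apart from those of CXCL8 (-2.97 to -2.55), CXCL2 (-2.72 to -2.05) and CXCL3 (-2.62 to -1.74), while the last of these overlapped one another.

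**Figure D2:**
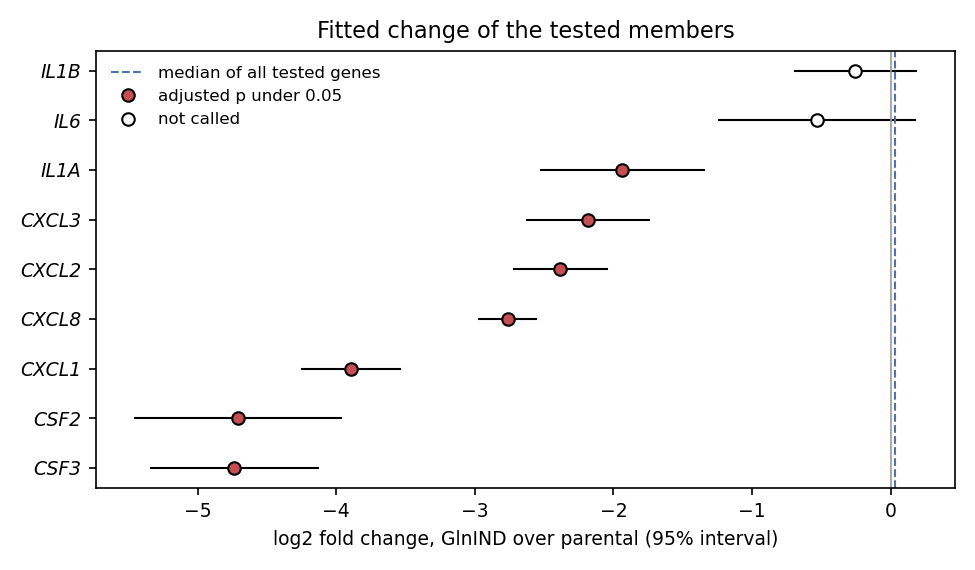
Fitted log2 fold change (GlnIND over parental) of the 9 tested genes with 95% intervals, filled where the adjusted p was under 0.05, and the median of all tested genes as a dashed line. CSF3 and CSF2 lie near -4.7, CXCL1 at -3.89, and the intervals of IL6 and IL1B include 0.

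Promoter stretches are shown because CXCL1, CXCL2 and CXCL3 are closely related copies of which CXCL1 fell further than the other two, while IL6 and IL1B did not pass the test. The stretches are the 140 bases before the annotated start in RefSeq (GRCh38.p14), read along the gene. They lie at chr4:73869253-73869392 (plus strand), chr4:74099196-74099335 (minus), chr4:74038690-74038829 (minus), chr4:73740429-73740568 (plus), chr7:22727060-22727199 (plus) and chr2:112836780-112836919 (minus). Capitals mark matches, on either strand, to the NF-kB motif (kappaB consensus), to the shorter kappaB core GGAATTTCC, to the AP-1 motif TGANTCA or to the C/EBP motif TTGCNNAA, and the IL1B stretch holds none.
CXCL1: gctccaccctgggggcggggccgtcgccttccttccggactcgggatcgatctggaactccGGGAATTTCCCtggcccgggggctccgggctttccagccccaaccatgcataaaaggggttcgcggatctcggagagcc
CXCL2: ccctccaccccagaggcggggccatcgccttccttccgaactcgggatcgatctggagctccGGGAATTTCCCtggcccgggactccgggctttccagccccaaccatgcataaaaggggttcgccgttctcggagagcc
CXCL3: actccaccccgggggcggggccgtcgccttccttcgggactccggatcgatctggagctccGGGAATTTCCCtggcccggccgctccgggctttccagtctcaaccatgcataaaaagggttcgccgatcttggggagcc
CXCL8: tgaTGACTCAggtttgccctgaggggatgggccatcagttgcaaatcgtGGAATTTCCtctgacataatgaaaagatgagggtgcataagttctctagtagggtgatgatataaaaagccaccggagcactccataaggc
IL6: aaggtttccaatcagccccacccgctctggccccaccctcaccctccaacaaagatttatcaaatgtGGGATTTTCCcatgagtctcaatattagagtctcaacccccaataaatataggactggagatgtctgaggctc
IL1B: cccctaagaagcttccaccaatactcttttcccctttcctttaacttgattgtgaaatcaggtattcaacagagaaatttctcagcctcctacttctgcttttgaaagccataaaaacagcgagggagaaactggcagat

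The promoters of CXCL1, CXCL2 and CXCL3 held the same 10-base kappaB match, GGGAATTTCC, starting 79, 78 and 79 bases before the start, and the core GGAATTTCC lies inside it. Over these 140 bases CXCL1 was 91.5% identical to CXCL2 and 90.7% to CXCL3, against 45.8% to CXCL8. The CXCL8 stretch held the core GGAATTTCC from base 91 and TGACTCA from base 137 before the start. IL6 held the kappaB match GGGATTTTCC from base 73. IL1B held no kappaB or AP-1 match in the 250 bases before the start, and CSF2 held no match to any of the 4 motifs there. CCL20 had the kappaB match GGAAAACCCC on the opposite strand, and both annotated IL1A starts had AP-1 matches. The C/EBP motif matched upstream of the printed bases in CXCL2 (TTACGCAA, opposite strand, from base 188), IL6 (TTGCACAA, base 155) and IL1B (TTGCAAAA, base 215). It matched in none of the other members' promoters that were scanned. Only exact matches to the patterns count here, and ttgcaaat in the CXCL8 stretch misses the C/EBP motif by its last base. Among 35116 promoters of the same 250 bases, 9.96% held the kappaB consensus, 0.413% the core GGAATTTCC, 6.57% TGANTCA and 9.05% TTGCNNAA. Promoters were matched for 9 of the 10 genes, all but CSF3. The kappaB consensus or its core was matched before CXCL1, CXCL2, CXCL3, CXCL8, CCL20 and IL6, and not before CSF2, IL1A or IL1B. Whether such matches bear on the changes was not tested.

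Ratios within a library do not depend on scaling between libraries. The ratio of CXCL1 to CXCL2 counts was 3.28, 3.12 and 3.47 in parental and 1.43, 1.16 and 0.896 in GlnIND libraries. CXCL1 over CXCL3 likewise dropped from 5.45 to 5.87 down to 1.26 to 2.73, and CXCL8 over CXCL1 rose from 3.51 to 4.10 up to 7.42 to 10.3. Relative to each of the 3 other genes, CXCL1 was lower in every GlnIND library than in any parental library. CXCL2 over CXCL3 did not separate the groups, at 1.69 to 1.74 in parental and 1.30 to 1.91 in GlnIND libraries (exact permutation p = 0.4, two-sided, adjusted p = 0.48 over 6 ratios). The separated ratios had an exact permutation p of 0.1, the smallest that 3 libraries against 3 can give (adjusted p = 0.15). Reads of the 3 copies could be confused in part: 5.73% of all 50-base stretches of the longest CXCL1 transcript, 9.24% of CXCL2 and 3.02% of CXCL3 occur in another of the 3, and none of the other members shares such a stretch with any gene (GENCODE 29).

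**Figure D3:**
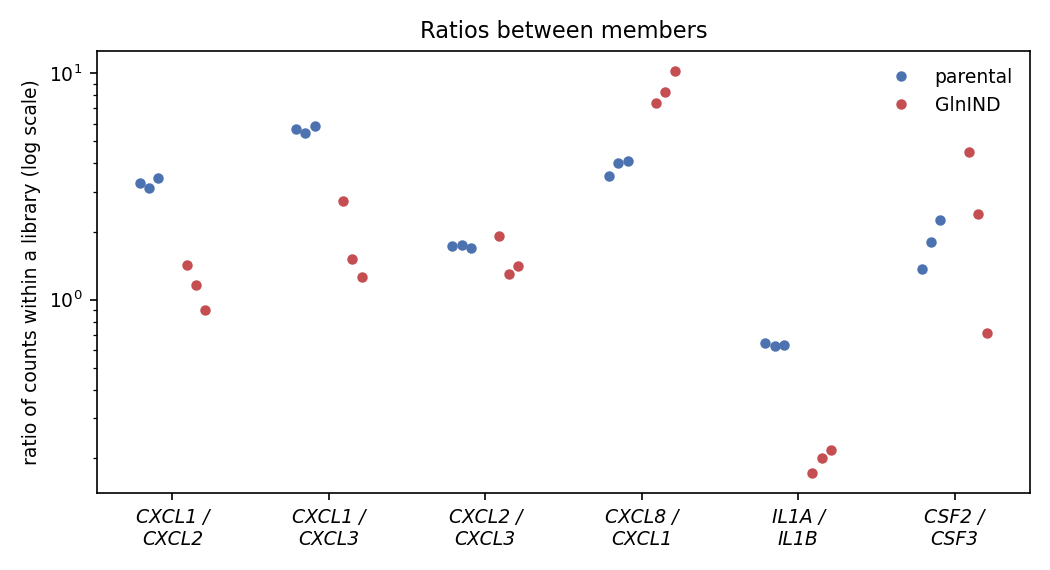
Ratios of counts between pairs of members within each library (log axis), parental in blue and GlnIND in red. The groups are apart for CXCL1 over CXCL2, CXCL1 over CXCL3, CXCL8 over CXCL1 and IL1A over IL1B, and overlap for CXCL2 over CXCL3 and CSF2 over CSF3.

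CCL20, which attracts CCR6-bearing lymphocytes and dendritic cells, was near the limit of detection. It had 8, 6 and 12 counts in parental and 4, 3 and 4 counts in GlnIND libraries, so all GlnIND values were below the floor of 6. The parental to GlnIND ratio of the summed counts was 2.76 with an exact 95% interval of 0.978 to 8.85, which covers counting error only. Fitted without a filter, its log2 fold change was -1.55 (SE 0.68, edgeR adjusted p = 0.0815), and no difference was detectable at this depth.

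The colony-stimulating factor genes had the lowest fitted log2 fold changes of the group, with intervals that overlapped that of CXCL1. CSF3 stood at 9.18, 11.5 and 10.6 CPM in parental and at 0.179, 0.416 and 0.537 CPM in GlnIND libraries, where it had 4, 10 and 14 counts. The fall was 26.6-fold (log2 fold change -4.74, SE 0.27, edgeR adjusted p = 9.47e-07), and GlnIND 1 lay under the floor of 6 counts. CSF2 stood at 12.6, 20.6 and 23.8 CPM in parental and at 0.807, 0.999 and 0.384 CPM in GlnIND libraries. Parental 1 was the lowest of its group, but still above 10 times the highest GlnIND library. The CSF2 fall was 26.1-fold (log2 fold change -4.71, SE 0.33, edgeR adjusted p = 3.22e-06), and its 95% interval of -5.45 to -3.96 contained that of CSF3 (-5.34 to -4.13). CSF2 over CSF3 ranged from 1.37 to 2.24 in parental and from 0.714 to 4.5 in GlnIND libraries. In bulk RNA, fewer cells expressing a gene and less RNA per cell cannot be told apart.

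The IL-1 genes parted from one another. IL1A, which is active in its precursor form and is often released from damaged cells, stood at 2.43, 2.63 and 2.60 CPM in parental and at 0.538, 0.832 and 0.614 CPM in GlnIND libraries. The groups did not overlap, and the fall was 3.83-fold (log2 fold change -1.94, SE 0.26, edgeR adjusted p = 0.000197). IL1B, whose precursor is cut by caspase-1, stood at 3.77, 4.23 and 4.11 CPM in parental and at 3.14, 4.16 and 2.84 CPM in GlnIND libraries. The groups overlapped, and the log2 fold change was -0.26 (SE 0.19, edgeR adjusted p = 0.288) with a 95% interval of -0.69 to 0.18. IL1A over IL1B was 0.622 to 0.645 in parental and 0.171 to 0.216 in GlnIND libraries (exact permutation p = 0.1, adjusted p = 0.15). IL1A and IL1B lie close together on chromosome 2.

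IL6 stood at 2.88, 1.43 and 2.29 CPM in parental and at 1.12, 2.00 and 1.46 CPM in GlnIND libraries, from 25 to 58 counts per library. The groups overlapped widely, with parental 2 below 2 of the GlnIND libraries. The log2 fold change was -0.53 (SE 0.32, edgeR adjusted p = 0.179), and its 95% interval of -1.24 to 0.18 does not reach the falls of the CXC chemokines. IL6-AS1, an antisense gene that overlaps IL6, had 22 parental and 21 GlnIND counts, and the strand setting of the counting is not given in the sources used here.

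The makeup of the group shifted as its sum fell. Per kilobase of exon, the parental order was CXCL8 (61.1 ± 3.94 CPM per kb), CXCL1 (28.8 ± 0.911), CSF2 (24.1 ± 7.31), CXCL2 (7.90 ± 0.337), CSF3 (5.90 ± 0.663), CXCL3 (5.20 ± 0.162), IL1B (2.47 ± 0.147), IL6 (1.28 ± 0.424), IL1A (1.2 ± 0.051) and CCL20 (0.540 ± 0.177), all SD with n = 3. The libraries of CXCL1 and CSF2, of CSF3 and CXCL3, and of IL6 and IL1A overlapped, so the order within these pairs is not resolved. In GlnIND cells CXCL8 was still first, at 9.0 ± 0.833 CPM per kb (SD, n = 3), and IL1B came next at 2.07 ± 0.425 (SD, n = 3), overlapping CXCL1 at 1.95 ± 0.476 (SD, n = 3). CXCL2 was at 1.51 ± 0.039 (SD, n = 3) and overlapped CXCL1. CXCL3 was at 1.14 ± 0.192, CSF2 at 0.927 ± 0.4 and IL6 at 0.890 ± 0.258 (SD, n = 3 each), and these overlapped one another. As a share of the summed CPM of the 10 genes, CXCL8 made up 58.6% to 59.0% in parental and 55.6% to 63.4% in GlnIND libraries. IL1B went from 1.86% to 2.02% of the sum up to 9.97% to 13.4%, while CSF2 went from 6.503% to 10.8% down to 1.39% to 3.22%.

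CXCL8, CXCL1, CXCL3 and CXCL2 lie side by side on chromosome 4 in the order of the tested genes. The tested genes that flank the cluster were ANKRD17 at a log2 fold change of -0.29 (edgeR adjusted p = 0.064) and MTHFD2L, which rose by 0.37 (edgeR adjusted p = 0.0091). The 40 tested neighbours had a median of -0.12, with 13 called lower and 7 higher, against 27.9% lower and 28.4% higher over all tested genes. Of the interferon-induced chemokine genes further along, CXCL10 was called higher (log2 fold change 2.04, but 4.31 without parental 3), and CXCL11 was not called (-0.60, edgeR adjusted p = 0.317). The 40 neighbours had a median of -0.25 around CSF2, 0.25 around CSF3, 0.08 around IL1A and IL1B, -0.41 around IL6 and -0.14 around CCL20. With the neighbours' median subtracted the same number of members, 7, was called lower, and the members' median was -2.26.

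**Figure D4:**
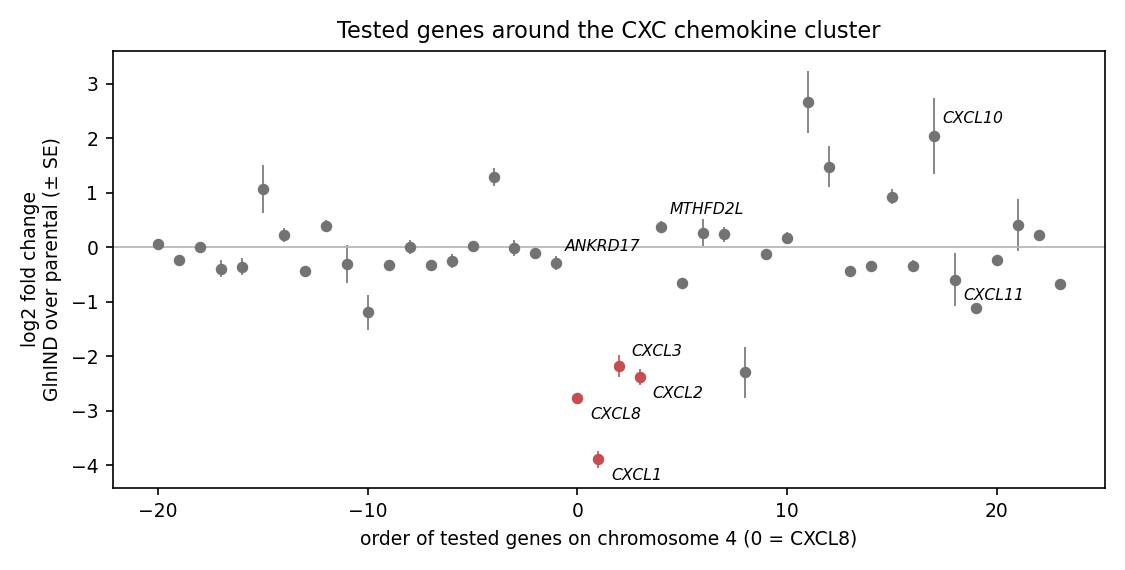
Log2 fold change (GlnIND over parental, ± SE) of tested genes by their order on chromosome 4, counted from CXCL8 at 0, with the members in red and other genes in grey. The 4 chemokines lie between -3.89 and -2.18, and flanking ANKRD17 and MTHFD2L lie at -0.29 and 0.37.

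The pathway genes that follow come from lists chosen with earlier results of these data known, so their counts describe and support nothing further. Over all tested genes 27.9% were called lower and 28.4% higher, and each list's counts stand beside those shares. The other ligands moved both ways. Of 21 further chemokines 6 were tested. Of these 2 fell, 1 rose and 3 passed in neither direction. Their median log2 fold change was -0.58, and 11 had 0 counts in every library, CCL2 and CCL5 among them. CX3CL1 (fractalkine), named after its values were seen, dropped from 48 counts to 2, a parental to GlnIND ratio of 30.5 (exact 95% interval 4.98 to 1256, counting error only), and both GlnIND counts were in GlnIND 2. CX3CL1 passed the filter on low counts only through the parental libraries, so its call is no test of the list. CCL28, a mucosal chemokine, fell (log2 fold change -0.56, SE 0.16, edgeR adjusted p = 0.0146), and CXCL10 rose from 2, 0 and 14 counts to 29, 22 and 34 counts (log2 fold change 2.04, SE 0.69, edgeR adjusted p = 0.0294). Parental 3 held 14 of the 16 parental counts of CXCL10, and without that library the log2 fold change was 4.31 (adjusted p = 0.000796), with limma-voom 3.07 (0.00988). CXCL10 passed the filter on low counts only with its GlnIND libraries, so its call is no test of the list either. CCL28 was no longer called with library totals alone (adjusted p = 0.0507) or without GlnIND 1 (0.0551) or GlnIND 3 (0.0593), and CXCL10 was no longer called without parental 2 (0.0672), GlnIND 1 (0.0864), GlnIND 2 (0.0557) or GlnIND 3 (0.0905).

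Of 18 other cytokines 12 were tested, of which 5 fell and 3 rose, against 27.9% lower and 28.4% higher over all tested genes. The median log2 fold change of these 12 was -0.67. CSF1 (M-CSF), the macrophage growth factor, went from 146, 176 and 169 CPM to 32.3, 38.6 and 36.2 CPM. The gene of this other colony-stimulating factor fell too (log2 fold change -2.20, SE 0.096, edgeR adjusted p = 2.08e-07). IL32 went from 2.38, 3.32 and 2.24 CPM to 0.090, 0.166 and 0.154 CPM, the latter from 10 counts in all and under the floor in each library (log2 fold change -4.20, SE 0.38, edgeR adjusted p = 1.55e-05). IL32 passed the filter on low counts only through the parental libraries, so its call describes the gene and is no test of the list. IL24, a cytokine of the IL-10 family, rose from 3.87, 4.52 and 5.35 CPM to 20.5, 16.9 and 17.8 CPM (log2 fold change 2.01, SE 0.15, edgeR adjusted p = 4.87e-06). LIF and IL11, which signal through IL6ST as IL6 does and were named after their values were seen, also fell. LIF had a log2 fold change of -0.97 (edgeR adjusted p = 8.44e-05) and IL11 of -0.79 (0.00155).

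Receptors for most of the ligands were at or near 0. CXCR1, CXCR2, CSF2RA, CSF2RB, CSF3R, ACKR1 and the IL-1 receptor antagonist IL1RN had 0 counts in every library, which allows up to 0.343 CPM in the shallowest. CCR6 had 4 parental and 0 GlnIND counts. The IL-6 and IL-1 receptors were detected. IL6ST (gp130), the shared signalling chain, fell from 497 ± 53.2 to 345 ± 17.8 CPM (SD, n = 3 each, log2 fold change -0.52, edgeR adjusted p = 0.000516). IL1RAP, the accessory chain, fell as well (log2 fold change -0.31, SE 0.10, edgeR adjusted p = 0.0273), a call lost with upper-quartile factors (adjusted p = 0.097), with library totals alone (0.224) or without parental 2 (0.063), GlnIND 1 (0.0998) or GlnIND 2 (0.057). IL6R stood at a log2 fold change of 0.03 (edgeR adjusted p = 0.903) and IL1R1 at 0.30 (0.236). So 2 of the 4 tested genes of this list fell and 0 rose, against 27.9% lower and 28.4% higher over all tested genes. Without parental 1, 1 gene of this list was called higher.

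In IL-1 signalling and processing, 7 of 17 tested genes fell and 4 rose, against 27.9% lower and 28.4% higher over all tested genes. The median log2 fold change of these 17 was 0.03. IRAK3, an inhibitory member of the IL-1 receptor kinases, fell from 20.1 ± 2.06 to 7.98 ± 0.474 CPM (SD, n = 3 each, log2 fold change -1.34, edgeR adjusted p = 1.56e-05). IRAK1, a kinase that transmits the signal, fell (log2 fold change -0.81, edgeR adjusted p = 0.000366) but stood at 0.03 (adjusted p = 0.843) with its neighbours' shift removed. SIGIRR, an inhibitory receptor, rose from 1.19, 2.17 and 2.34 CPM to 6.59, 6.58 and 7.45 CPM (log2 fold change 1.86, SE 0.23, edgeR adjusted p = 0.000114). CASP1, which encodes the protease caspase-1, stood at 0.26 (edgeR adjusted p = 0.293), and NLRP3, an inflammasome sensor, at 0.09 (0.484).

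Genes of the NF-kB system fell more often than they rose. Of 8 subunits and kinases 5 fell, 2 rose and 1 was not called (median -0.54), and of 11 inhibitors and feedback genes 6 fell, 2 rose and 3 were not called (median -0.41), against 27.9% lower and 28.4% higher over all genes. RELB, a subunit of the non-canonical pathway, fell from 16.7, 22.9 and 20.3 CPM to 6.46, 5.87 and 5.22 CPM (log2 fold change -1.77, SE 0.15, edgeR adjusted p = 1.05e-05). NFKB1, which encodes a DNA-binding subunit, fell (log2 fold change -1.03, SE 0.069, edgeR adjusted p = 2.29e-06), and so did IKBKG (NEMO), the scaffold of the kinase complex (-0.99, 9.37e-05). RELA, the main activating subunit, named after its values were seen, was higher, at 131 ± 2.5 CPM against 87.3 ± 3.13 CPM (SD, n = 3 each, log2 fold change 0.58, edgeR adjusted p = 4.62e-05). With the neighbours' shift removed IKBKG stood at -0.18 (adjusted p = 0.232) and RELA at -0.14 (adjusted p = 0.0914), and NFKB1 at -0.72. The inhibitor genes NFKBIA and NFKBIE, themselves NF-kB targets, had log2 fold changes of -1.65 (edgeR adjusted p = 3.03e-07) and -1.57 (2.05e-05), and TNIP1 of -0.93 (2.37e-06). Only 1 inhibitor gene was called higher when parental 3 or any one GlnIND library was left out, and 0 with the neighbours' shift removed. Called lower were 9 with that shift removed, 8 without parental 1 and 7 without parental 3.

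**Figure D5:**
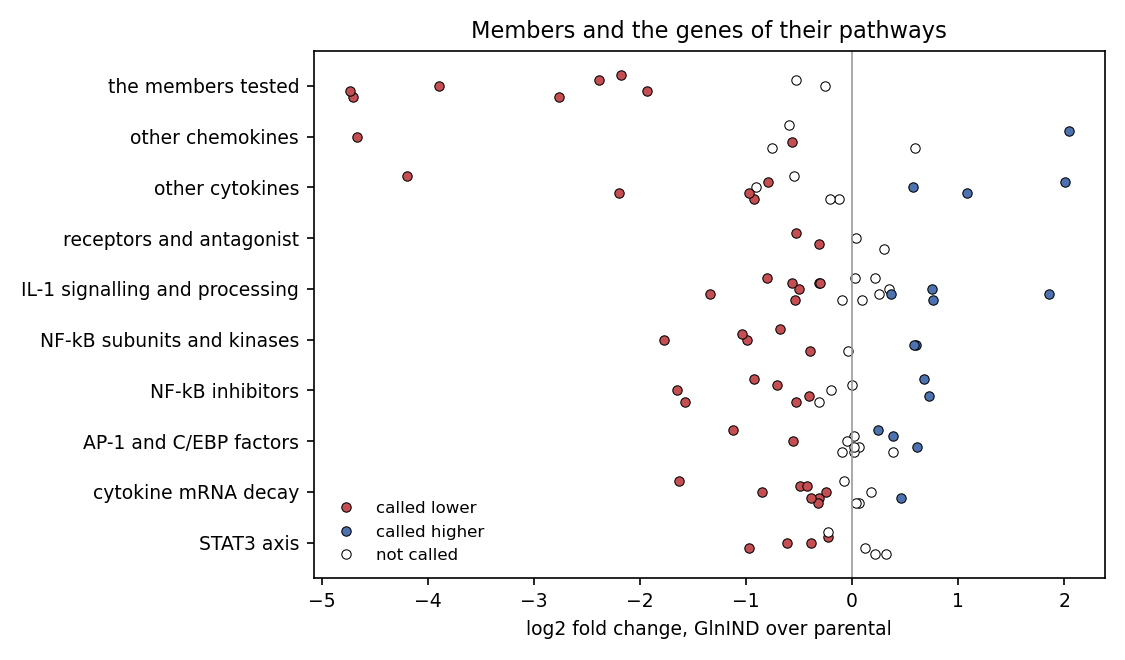
Log2 fold change (GlnIND over parental) of each tested gene in the members and the pathway lists, 1 point per gene, red where called lower, blue where called higher and white where not called. The members have a median of -2.38, CX3CL1 and IL32 of the other ligands lie as far to the left as CSF2 and CXCL1, and the lists of IL-1 signalling and of AP-1 and C/EBP factors have medians of 0.03 and 0.02.

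Of 12 AP-1 and C/EBP factor genes 2 fell and 3 rose, against 27.9% lower and 28.4% higher over all tested genes. The median log2 fold change of these 12 was 0.02. DDIT3, a stress-induced C/EBP factor, fell (log2 fold change -1.13, edgeR adjusted p = 3.28e-05). FOSB rose (log2 fold change 0.61, edgeR adjusted p = 0.0223) and CEBPD fell (-0.56, 0.0407). FOSB was not called when parental 2 (adjusted p = 0.0639), GlnIND 2 (0.076) or GlnIND 3 (0.0984) was left out, and it stood at 0.26 with the neighbours' shift removed (0.287). CEBPD was not called under either other scaling (0.0744 with upper-quartile factors, 0.111 with library totals), without parental 1 (0.137) or any one of the GlnIND libraries (0.0549 to 0.12), with the replicate block (0.0722) and in DESeq2 (0.052). With the neighbours' shift removed 4 genes of this list fell and 0 rose.

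Of 13 genes that control cytokine mRNA decay 8 fell and 1 rose, against 27.9% lower and 28.4% higher over all tested genes. The median log2 fold change of these 13 was -0.31. ZC3H12A (Regnase-1), an RNase that cleaves IL6 and other cytokine mRNAs, fell from 6.55, 10.4 and 13.4 CPM to 3.77, 3.29 and 2.73 CPM (log2 fold change -1.63, SE 0.26, edgeR adjusted p = 0.000485). HNRNPD (AUF1) and KHSRP, which bind AU-rich elements and promote decay, fell with log2 fold changes of -0.85 (edgeR adjusted p = 0.000119) and -0.49 (0.000114). ZFP36 (tristetraprolin), another AU-rich element binding factor, had a log2 fold change of 0.04 (edgeR adjusted p = 0.846). ZFP36L1 was the gene of this list that rose (log2 fold change 0.46, edgeR adjusted p = 0.000249). With library totals alone 5 genes of this list fell and 3 rose, and without parental 1, 3 rose. Of 8 genes listed for the IL6 and STAT3 axis 4 fell and 0 rose, against 27.9% lower and 28.4% higher over all tested genes. The median log2 fold change of these 8 was -0.23. IER3 (log2 fold change -0.97, edgeR adjusted p = 0.00237), IL4R (-0.61, 0.000286) and STAT3 itself (-0.39, 0.000694) fell, and SOCS3, a classical STAT3 target, was at 0.12 (edgeR adjusted p = 0.58). With upper-quartile factors or library totals 2 genes of this list were called higher, and without parental 1, 1 was.

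The 5 genes outside the group whose pattern over the 6 libraries was most like the members' median profile were TMEM135, STOM, BAIAP2L1, TGFBI and WNT5B. Their root mean square differences from that profile, on centred log2 CPM, were 0.050, 0.091, 0.098, 0.114 and 0.121. TMEM135, for example, stood at 35.0, 35.9 and 33.2 CPM in parental and at 6.10, 6.41 and 6.37 CPM in GlnIND libraries, and TGFBI at 71.1, 80.8 and 80.1 CPM and at 15.2, 17.02 and 14.97 CPM. The likeness rests on 6 libraries in 2 groups, and TMEM135 stood at a log2 fold change of -1.77 with its neighbours' shift removed, against -2.46.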

How the data were processed

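PolyA RNA was sequenced in 6 libraries, 3 parental and 3 GlnIND. Raw counts for each gene symbol were deposited by the authors, who name FastQC, STAR, featureCounts, DESeq and build hg19, per the submitters' processing notes. Versions, annotation, strand and multi-mapping settings are not given in the sources used here. Low counts were mostly even (60.6% to 65.0% of genes under 20 counts), a pattern that arises when both mates of a pair are counted, so floors were set at 6 counts and exact Clopper-Pearson 95% intervals used halved counts. Both cover counting error only. The deposited matrix equals the per-library tables with replicates 1 and 3 exchanged within each group. Numbers here follow the tables.

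Counts were tested by the two-sided quasi-likelihood test (glmQLFTest after glmQLFit) of edgeR 4.0.16 under R 4.3.3 (TMM factors, filterByExpr with a minimum count of 10 and total of 15, group alone), with Benjamini-Hochberg adjustment over 13949 genes, after a test on simulated data. SE came from the F statistic. Alternatives were RLE, upper-quartile and no factors, other filters, left-out libraries, a replicate block, DESeq2 1.42.0, limma-voom 3.58.1, robust dispersion, an adjusted p under 0.01, glmTreat, the matrix, and removal of the median log2 fold change of 40 neighbours, ordered by GRCh38.p14 RefSeq positions. Exon lengths and transcripts are from GENCODE 29 (GRCh38). Named genes are the members, up to 3 called genes per pathway list, ranked by size of change among those whose mean CPM reached 1 in either group, the 5 of most similar pattern, and the members' chromosome neighbours. Other named genes, such as IL6R, IL1R1, CASP1, NLRP3, ZFP36, ZFP36L1, SOCS3 and CYLD, were added after their values were seen. Members and lists were chosen with earlier results of these data known.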

Additional observations from a re-analysis of the deposited data

How the results depend on the processing

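The 7 lower and 0 higher members held in number under all 19 alternatives, and no member's call or direction changed in the 171 member results that could be recomputed. Among these, the matrix repeated the main fit, and the 0.01 threshold and glmTreat kept its log2 fold changes, so their directions were fixed. The log2 fold changes ranged from -4.09 to -3.74 for CXCL1, -2.85 to -2.61 for CXCL8, -5.02 to -4.39 for CSF2, -5.09 to -4.44 for CSF3, -2.14 to -1.78 for IL1A, -0.78 to -0.12 for IL6 and -0.44 to -0.10 for IL1B. Against a log2 fold change of 1 (glmTreat) 1006 genes were called, 656 higher and 350 lower, and 7 pathway genes were lower and 2 higher, against 7853, 3965, 3888, 41 and 16, since that test asks for a larger change. With the neighbours' shift removed IRAK1 turned to 0.033, RELA to -0.14 and CYLD, a deubiquitinase of the inhibitor list, to -0.061. The removed shift was treated as known, so those p-values leave out its error. The labels do not say whether replicate numbers pair the libraries, and this was not settled here. Correlations of deviations between libraries of unlike number ranged from -0.060 to 0.076. The same-number correlations of deviations were -0.063, 0.030 and -0.037, and the replicate block gave 7303 called genes and 7 lower members, with CEBPD as the only call lost among the named genes. CCL20 has no fitted value except without the filter, and depth limits what can be said of it and of CSF3 in GlnIND cells.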
